A study of Homo sapiens with 6 samples.

Results

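The genes described here are 99 long intergenic noncoding RNA genes with the higher array values among their class in HuH7 cells, a human hepatoma line. They were chosen from the 457 genes on the array whose symbol is LINC followed by digits. Where a gene had several probe sets, the one with the highest mean over all 6 arrays stood for it, and genes with a mean log2 value of at least 5.5 were kept. The level chose the members, so their levels are a description. The difference between the groups was not used in the choice. The other 358 LINC genes had means under 5.5. The cut lies a little above the array medians, and CD14 (mean 5.62) and ERG (mean 5.54), markers of other cell types, also reach it, so a value just over 5.5 does not by itself show expression. All 99 members are annotated as lncRNA genes in the RefSeq gene table of assembly GRCh38.p14, where 11 of them overlap a protein-coding gene.

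A LINC symbol is given to a long noncoding RNA gene that was placed between protein-coding genes and has no better-known name. Such RNAs are usually spliced and polyadenylated like messenger RNAs but carry no long reading frame. They are known for low levels and for restriction to few tissues. Some act on the genes beside them, some bind proteins or microRNAs, and for most no role is established.

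The study compared 3 arrays of cells given a gapmer against EGOT with 3 arrays of cells given a control gapmer. EGOT is itself a long noncoding RNA, induced by double-stranded RNA, and a gapmer is an oligonucleotide that directs RNase H to cut a complementary RNA. PKR, a kinase switched on by double-stranded RNA, was expressed from a transfected plasmid in both groups (0.3 µg of 1 µg plasmid DNA), and poly I:C, which mimics viral double-stranded RNA, was given to both, so every comparison here is made on that background. Each well of 100000 cells received 50 pmol of gapmer and RNA was taken after 36 hours. There was 1 gapmer per group, and whether the replicates came from separate cultures is not stated, so the p-values speak only of array-to-array spread, which may be technical. The sequences that the labels give for the gapmers follow, since the groups differ by them.
EGOT gapmer: agagacacttagaaga
control gapmer: aacacgtctatacgc

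Over all 44629 probe sets the array medians lay between 5.08 and 5.23, with EGOT gapmer replicate 2 the highest. The knockdown was present. EGOT read 6.29, 6.79 and 6.71 with the control gapmer and 4.91, 4.90 and 4.69 with the EGOT gapmer, a log2 difference of -1.76 (SE 0.142; limma adjusted p = 0.0076). By an exact two-sided permutation test p was 0.1, and 3 arrays against 3 can give no smaller p. EIF2AK2, the gene of PKR, was lower by a log2 difference of -0.57 in the EGOT gapmer arrays (limma adjusted p = 0.0119). It did not pass without control gapmer replicate 1, 2 or 3 (limma adjusted p = 0.0605, 0.0640 and 0.0616), with every probe set tested (0.0540) or with the replicate number as a block (0.0634). Whether its probe set also reads the PKR plasmid was not tested. Of 16 hepatocyte marker genes 12 were measured, and their array means ran from 11.47 to 11.51 with the control gapmer and from 11.54 to 11.58 with the EGOT gapmer. Albumin (ALB) lay between 13.64 and 13.71 on the 6 arrays. Endothelial markers (6 of 9 measured) and fibroblast and stellate markers (3 of 8 measured) had array means of at most 4.53. Leukocyte markers (6 of 10 measured) had array means of 6.27 to 6.41 with the control gapmer and 6.51 to 6.78 with the EGOT gapmer. In that list CD68 rose by 1.06 and LYZ by 0.57 on the log2 scale, while CD2, CD14, LAPTM5 and TYROBP, with means of 4.97 to 5.62, did not pass. In the hepatocyte list APOA1 and TM6SF2 each rose by 0.36. APOB, at -0.18, and TTR, at -0.13, were lower without overlap but did not pass. Of the 12 measured, 7 were above 0 and 5 below, with a median log2 difference of 0.0052. The part of these shifts in the LINC results was not tested.

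The promoter windows that follow show the start regions of some LINC genes named in the results. Not every member that passed is shown, and LINC00310, LINC00623, LINC01061 and LINC01002 did not pass. They are RefSeq sequences of assembly GRCh38.p14, each running 300 bases, from 250 before the gene's start to 50 after it, written 5′ to 3′ on the gene's strand. Capitals mark matches to CCAAT (the CCAAT box), TGACGTCA (a cAMP response element) and GAAA, 2 free bases, GAAA (the core of an interferon-stimulated response element), each searched on both strands and not overlapping one another here. LINC00938 and LINC00339 are shown as genes that rose and LINC00630 as one that fell. LINC00310 and LINC00623 are shown because they were the 2 members with the interferon element. LINC01061 and LINC01002 are shown because their windows are near-copies of each other. LINC00339 and LINC00623 each have another window in the table, which is not shown.
LINC00938, chr12:45727872-45728171, minus strand: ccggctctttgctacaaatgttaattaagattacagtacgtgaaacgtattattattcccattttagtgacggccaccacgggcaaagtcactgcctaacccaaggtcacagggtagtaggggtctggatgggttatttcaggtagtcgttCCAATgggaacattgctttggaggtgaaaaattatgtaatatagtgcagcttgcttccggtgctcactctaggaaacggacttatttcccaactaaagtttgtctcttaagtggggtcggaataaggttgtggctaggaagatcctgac
LINC00339, chr1:22024941-22025240, plus strand: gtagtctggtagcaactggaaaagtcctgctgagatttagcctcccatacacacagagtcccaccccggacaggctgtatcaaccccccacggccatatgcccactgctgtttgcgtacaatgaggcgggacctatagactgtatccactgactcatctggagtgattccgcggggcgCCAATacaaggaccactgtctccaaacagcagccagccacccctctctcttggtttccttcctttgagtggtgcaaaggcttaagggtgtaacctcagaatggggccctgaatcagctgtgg
LINC00630, chrX:102768903-102769202, plus strand: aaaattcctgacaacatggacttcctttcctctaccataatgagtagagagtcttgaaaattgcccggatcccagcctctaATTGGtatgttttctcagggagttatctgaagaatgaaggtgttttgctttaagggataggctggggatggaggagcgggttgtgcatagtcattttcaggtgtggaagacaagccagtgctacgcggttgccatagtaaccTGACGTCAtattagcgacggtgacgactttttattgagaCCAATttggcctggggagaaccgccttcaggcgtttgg
LINC00310, chr21:34180427-34180726, plus strand: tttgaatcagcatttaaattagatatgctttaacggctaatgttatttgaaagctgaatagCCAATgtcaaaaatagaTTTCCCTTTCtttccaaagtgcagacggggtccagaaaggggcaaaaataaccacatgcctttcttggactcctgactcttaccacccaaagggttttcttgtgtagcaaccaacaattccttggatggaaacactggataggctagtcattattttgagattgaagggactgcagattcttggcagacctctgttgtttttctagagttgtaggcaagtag
LINC00623, chr1:120912967-120913266, plus strand: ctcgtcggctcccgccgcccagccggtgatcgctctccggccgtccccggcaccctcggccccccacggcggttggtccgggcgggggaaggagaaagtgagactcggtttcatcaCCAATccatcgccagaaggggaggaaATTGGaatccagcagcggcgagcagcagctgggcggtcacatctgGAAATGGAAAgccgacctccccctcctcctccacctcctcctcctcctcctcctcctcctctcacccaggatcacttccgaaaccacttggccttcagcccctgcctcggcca
LINC01061, chr4:119410611-119410910, minus strand: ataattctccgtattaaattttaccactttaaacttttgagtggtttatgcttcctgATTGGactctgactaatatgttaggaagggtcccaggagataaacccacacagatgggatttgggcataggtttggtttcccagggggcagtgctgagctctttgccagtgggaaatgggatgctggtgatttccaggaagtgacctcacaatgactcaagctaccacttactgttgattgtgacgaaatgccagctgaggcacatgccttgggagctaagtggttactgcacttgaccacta
LINC01002, chr19:202160-202459, minus strand: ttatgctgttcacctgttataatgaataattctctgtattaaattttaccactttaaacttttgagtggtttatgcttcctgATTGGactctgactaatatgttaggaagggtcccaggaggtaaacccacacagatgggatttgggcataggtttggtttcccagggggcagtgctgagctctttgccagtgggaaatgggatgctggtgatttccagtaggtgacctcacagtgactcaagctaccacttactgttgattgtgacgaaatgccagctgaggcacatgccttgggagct

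Of the 99 members 71 had a window in the table, some with more than 1, for 81 windows in all. The interferon element was found in 2 of the 81 (2.47%) and in 3.57% of all 35116 windows of the table. TGACGTCA was found in 3 (3.7%, against 1.85%), in LINC00630, LINC00265 and LINC03006. CCAAT was found in 35 (43.2%, against 34.6%). TATAAA, the TATA box, was found in 10 (12.3%, against 11.5%), and GGG, 5 free bases, CC, a loose kappa B element, in 48 (59.3%, against 58.7%). These are counts of letters and were not tested. Among members that rose or fell, LINC00351, LINC00999 and LINC01347 are named without a window.

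**Figure D1:**
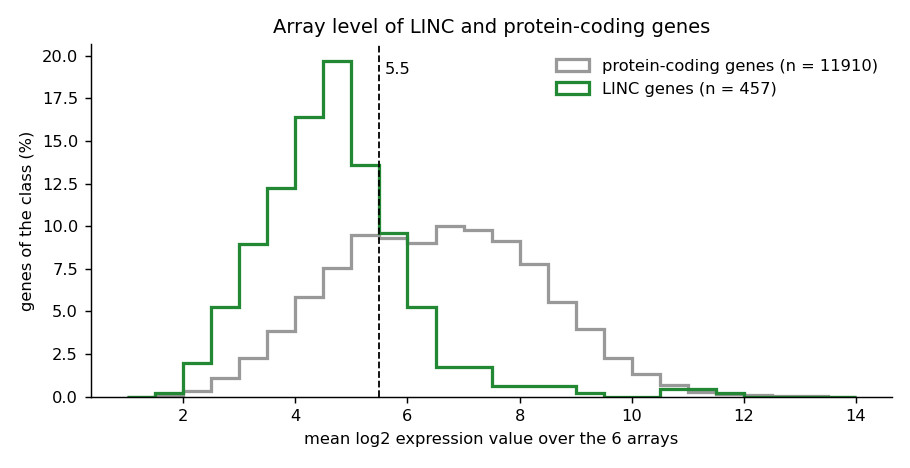
Distribution of the mean log2 expression value over the 6 arrays (x axis) as a percentage of the genes of each class (y axis), for 457 LINC genes and 11910 protein-coding genes, with a dashed line at the level of 5.5. The LINC curve lies to the left, with 99 genes at or above the line.

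LINC genes lay low on the array. The median of the gene means was 4.62 over the 457 LINC genes and 6.56 over 11910 protein-coding genes, and 21.7% of LINC genes but 69.5% of protein-coding genes reached 5.5. Probe sets differ in how well they bind, so this is a statement on signal and not on molecules. Many members sat close to the cut. In 44 of them the mean was under 6, in 32 it was from 6 to under 7, in 18 from 7 to under 10, and in 5 it was 10 or more. The members just inside were LINC01096 at 5.51, LINC01299 at 5.52 and LINC00696 at 5.56, and the genes just outside were LINC01341 at 5.496, LINC00853 at 5.49 and LINC03062 at 5.49. LINC00696 had a mean of 5.42 with the control gapmer, under the cut, and 5.70 with the EGOT gapmer.

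With EGOT lowered, the LINC genes above the cut moved in both directions and few passed the test. Of the 99 members 5 rose, 4 fell and 90 did not pass (limma, adjusted p under 0.05 over 14812 genes). That is 9.09% of the members, beside 8.41% of all genes tested and 12.4% of the 9225 genes with a mean of at least 5.5, so the share is near the background. By direction, 5.2% of all genes rose and 3.21% fell, and of the genes at that level 7.59% rose and 4.79% fell. The median log2 difference was -0.0037 over the members and 0.04 over all genes, with the members between -0.72 and 0.60. Groups did not overlap in 30 members, 30.3%, beside 31.7% of all genes and 43.7% of the genes at that level. They lay apart upward in 13 members, with 20.2% of all genes and 28% of genes at that level, and downward in 17, with 11.5% and 15.7%. A difference of at least 1.5-fold was seen in 3 members, LINC00351, LINC00938 and LINC02381. The share of all genes past that cut was not counted. After quantile normalization LINC00938 was at 0.54 and LINC02381 at 0.55 on the log2 scale, which is under the cut.

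All members that passed had a mean of 6 or more. Of the 44 members with a mean under 6, 0 passed by limma and 5 had an unadjusted p under 0.05, where 4.61% of all genes in that range passed. The share of all genes in that range with an unadjusted p under 0.05 was not counted. Of 32 members from 6 to under 7, 2 passed (6.25%, with 8.19% of all genes), and of 23 members at 7 and over, 7 passed (30.4%, with 16.6% of all genes). These shares were not tested against each other. The standard error of a difference had a median of 0.102 over the members, 0.0851 over all genes with a mean of at least 5.5 and 0.123 over the LINC genes under 5.5. In 72 members the 95% confidence interval of the difference lay within 0.5 of 0 on the log2 scale.

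**Figure D2:**
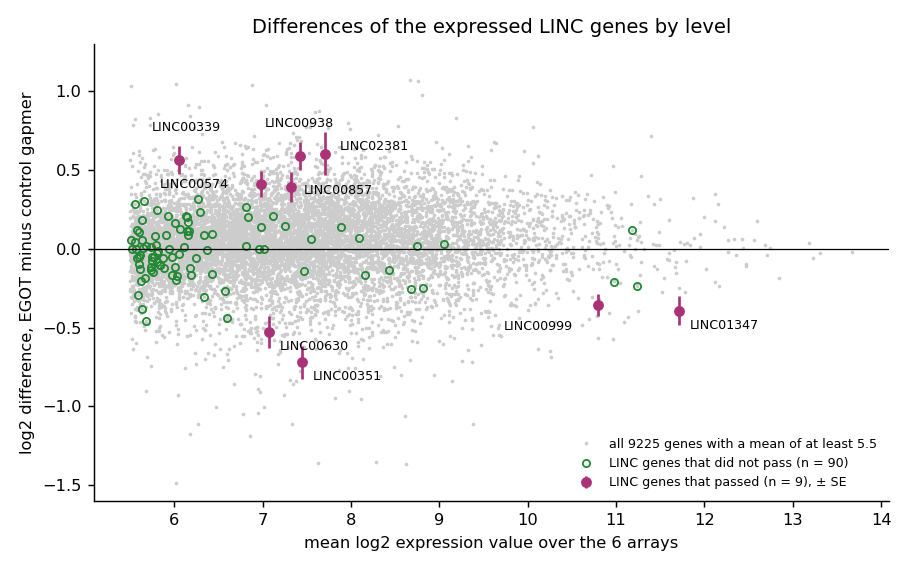
Log2 difference, EGOT gapmer minus control gapmer (y axis), against the mean log2 value over the 6 arrays (x axis). Grey points are all 9225 genes with a mean of at least 5.5, open circles the 90 LINC genes that did not pass, and filled circles the 9 that did, with bars of 1 standard error. The 9 lie at means of 6.06 and above.

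LINC02381, transcribed from the end of the HOXC cluster on chromosome 12, showed the largest rise. It read 7.16, 7.62 and 7.44 with the control gapmer and 7.83, 8.03 and 8.16 with the EGOT gapmer. The EGOT gapmer arrays all lay above the control arrays, but the spread in each group was the widest among the members that rose. The log2 difference was 0.60 (SE 0.138), a 1.52-fold rise (limma adjusted p = 0.0435). Its start region has near-identical copies at other genes, described with the other shared sequences. Whether its probes lie in shared sequence was not tested, so its value is uncertain.

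LINC00938, on chromosome 12 between ANO6 and ARID2, rose by a similar amount with less spread. It read 7.13, 7.06 and 7.22 with the control gapmer and 7.65, 7.65 and 7.87 with the EGOT gapmer. The groups were separated by more than the range within either. The log2 difference was 0.59 (SE 0.0898), a 1.503-fold rise (limma adjusted p = 0.0171). Its window, printed above, holds 1 CCAAT match.

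LINC00339, on chromosome 1 beside the GTPase gene CDC42, was the dimmest member that passed. It read 5.66, 5.78 and 5.89 with the control gapmer and 6.27, 6.42 and 6.32 with the EGOT gapmer. All 3 EGOT gapmer values were higher than every control value. The log2 difference was 0.56 (SE 0.0866; limma adjusted p = 0.0173).

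LINC00574 on chromosome 6 and LINC00857 on chromosome 10 rose by less. LINC00574 read 6.67, 6.83 and 6.85 against 7.11, 7.26 and 7.21, a log2 difference of 0.41 (SE 0.0823; limma adjusted p = 0.0306). LINC00857, which has been studied for its effect on proliferation of tumour cells, read 7.06, 7.19 and 7.13 against 7.45, 7.69 and 7.42. Neither gene's groups overlapped. The log2 difference of LINC00857 was 0.39 (SE 0.0940; limma adjusted p = 0.0482), the closest of the 9 to the threshold. It no longer passed after another quantile normalization of the table (0.345, limma adjusted p = 0.0506).

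LINC00351, on chromosome 13 between the neuronal genes SLITRK1 and SLITRK6, showed the largest change of any member. It read 7.642, 7.998 and 7.772 with the control gapmer and 7.10, 6.99 and 7.15 with the EGOT gapmer. The lowest control value stood well above the highest EGOT gapmer value. The log2 difference was -0.72 (SE 0.106), which is 1.65-fold lower (limma adjusted p = 0.0159).

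LINC00630, an X-linked gene whose span overlaps the protein-coding genes ARMCX5-GPRASP2 and RAB40AL in RefSeq, fell by 0.53 on the log2 scale. It read 7.15, 7.40 and 7.47 with the control gapmer and 6.77, 6.91 and 6.74 with the EGOT gapmer, with no overlap. The standard error was 0.103 (limma adjusted p = 0.0294). The place of its probes within the span was not analysed here. Its window holds the cAMP response element letters and 2 CCAAT matches.

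**Figure D3:**
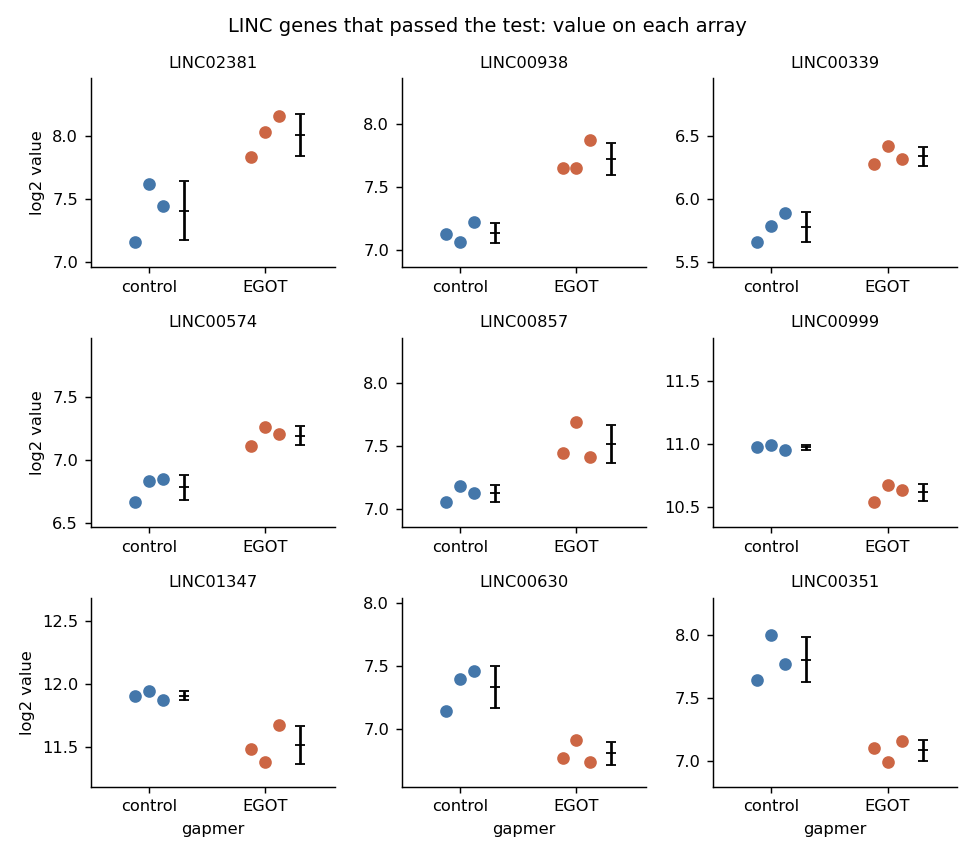
Log2 value on each array (y axis, each panel covering 1.5 log2 units and not starting at 0) for the 9 LINC genes that passed, with control gapmer arrays at left and EGOT gapmer arrays at right and, beside them, the mean ± SD (n = 3). The groups do not overlap in any of the panels.

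The other falls were in genes with very bright probe sets. LINC00999 read 10.97, 10.99 and 10.95 with the control gapmer and 10.54, 10.67 and 10.63 with the EGOT gapmer, a log2 difference of -0.36 (SE 0.0693; limma adjusted p = 0.0291). LINC01347 read 11.90, 11.95 and 11.87 against 11.48, 11.38 and 11.68, a log2 difference of -0.39 (SE 0.0911; limma adjusted p = 0.0449). Control arrays agreed closely in both genes, with an SD of 0.0183 in LINC00999 and 0.0382 in LINC01347. LINC01000 and LINC01061, also among the 5 members with a mean of 10 or more, were lower without overlap but did not pass. LINC01000 was at -0.24 (limma adjusted p = 0.122) and LINC01061 at -0.21 (limma adjusted p = 0.185). LINC01002, at a mean of 8.82, read 8.97, 8.96 and 8.90 against 8.59, 8.77 and 8.72, a log2 difference of -0.25 (limma adjusted p = 0.0890). It passed after quantile normalization (-0.31, limma adjusted p = 0.0326) and after cyclic loess (-0.31, limma adjusted p = 0.0339). The remaining bright member, LINC00987, went the other way, at 0.12 with overlapping groups (limma adjusted p = 0.553).

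The 5 brightest members each have several probe sets. LINC00987 has 2, with means of 11.19 and 5.62, at 0.12 and 0.30. LINC01061 has 7 probe sets on the array, 5 of them with means from 10.48 to 10.98, and all 7 had a difference below 0, from -0.34 to -0.10. LINC01347 has 3, at -0.39, -0.25 and -0.22 from the brightest to the dimmest, and LINC01000 has 3, at -0.24, -0.28 and -0.13. In each of these genes the groups overlapped in the dimmest probe set. LINC00999 differs, since its brightest probe set was at -0.36 and the other 2, with means of 7.36 and 6.28, were at 0.01 and 0.12. The mean of its probe sets had a difference of -0.08 and did not pass (limma adjusted p = 0.709), so its call rests on 1 probe set. By number, this probe set lies between those of AFP and FGB on chromosome 4, though LINC00999 is on chromosome 10. The brightest of LINC01347 (chromosome 1) lies between those of LINC01446 and LINC00174 on chromosome 7. Its second lies next to that of LINC01002 on chromosome 19. Only its dimmest (limma unadjusted p = 0.162) lies by number on chromosome 1, next to that of CEP170. The brightest of LINC01000 (chromosome 7) lies between those of LINC00847 and LINC01019 on chromosome 5. Its second lies near that of LINC01128 on chromosome 1. Only its dimmest (limma unadjusted p = 0.368) lies by number on chromosome 7. The brightest of LINC00987 (chromosome 12) lies between those of LINC03027 on chromosome 10 and LINC01023 on chromosome 5. The 5 bright ones of LINC01061 (chromosome 4) are numbered near these, apart from its dimmer ones. Where these probes match was not tested, so the values are uncertain.

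The windows of LINC01061 on chromosome 4 and LINC01002 on chromosome 19 matched in 270 of 275 aligned bases (98.2%). Each also shared at least 50 runs of 20 bases with the windows of 6 other genes, each other among them and the rest on chromosomes 1, 5, 7 and 11. Identity over the aligned bases was 96.7% to 99.7%. Whether the probes of LINC01061 and LINC01002 lie in shared sequence was not tested, so their values are uncertain. The window of LINC02381 shared as many runs with those of 8 genes on chromosomes 9 and 20, among them FAM242 family members, at 96.9% to 100% identity. LINC00623 shared as many with PARP8 on chromosome 5, and LINC00863 with AMMECR1L on chromosome 2. The same limit holds for every member whose window shares such runs with a gene elsewhere in the genome. Some windows instead matched at 100% identity, in opposite orientation, that of a gene on the same chromosome. LINC01134 with C1orf174 and LINC00205 with POFUT2 are such pairs. Whether such windows are 1 stretch of DNA was not analysed. LINC00999 and LINC01347 had no window to compare.

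**Figure D4:**
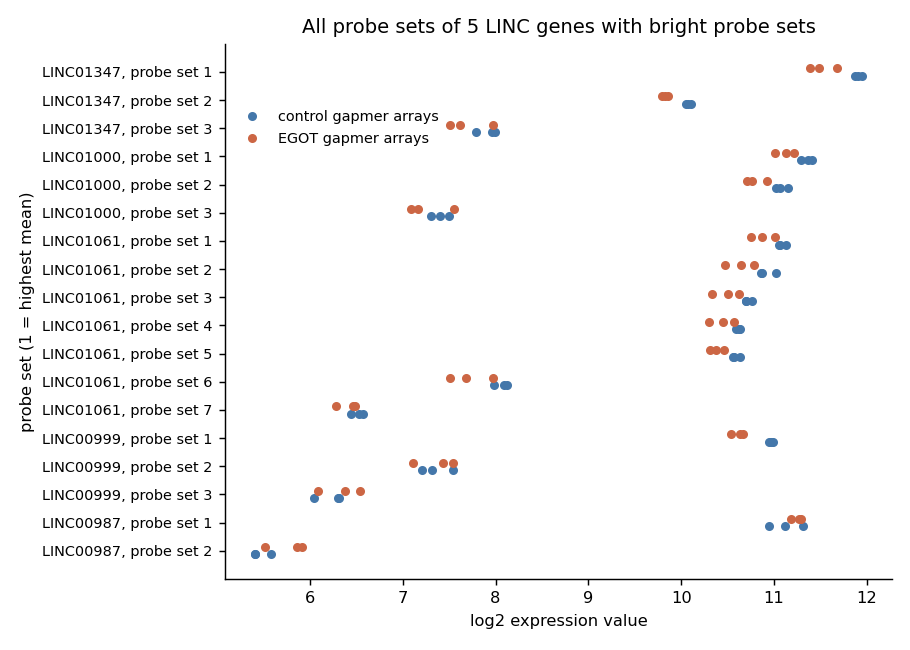
Log2 value (x axis) of every probe set (y axis, numbered from the highest mean) of the 5 LINC genes whose brightest probe set has a mean of 10 or more, with control gapmer arrays in blue and EGOT gapmer arrays in orange. In LINC01347, LINC01000 and LINC01061 every probe set has a lower mean with the EGOT gapmer, whereas the dimmer probe sets of LINC00999 do not.

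Of the 18 members with several probe sets, 7 had probe sets with differences of opposite sign, LINC00265, LINC00312, LINC00663, LINC00957, LINC00999, LINC01019 and LINC01554. In LINC00685 both probe sets held the same 6 values. LINC03006 showed the widest gap between probe sets. The brighter one, which stood for the gene, was at 0.18 (limma adjusted p = 0.506). The dimmer, with a mean of 4.13, read 3.580, 3.545 and 3.911 against 4.381, 4.817 and 4.521, a difference of 0.89 (limma adjusted p = 0.0606 over all probe sets).

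Several members fell just short. On the log2 scale LINC00671 was at -0.38 (limma adjusted p = 0.0612), LINC00310 at -0.44 (limma adjusted p = 0.0660) and LINC00525 at -0.46 (limma adjusted p = 0.0766). LINC00671 and LINC00525 had means of 5.82 and 5.91 with the control gapmer. With the EGOT gapmer their means were 5.44 and 5.45, so they reached the level of 5.5 only through the control group. LINC00310 read 6.76, 6.93 and 6.75 with the control gapmer and 6.37, 6.17 and 6.58 with the EGOT gapmer. LINC00623 read 6.54, 6.45 and 6.47 against 6.02, 6.18 and 6.33, a difference of -0.31 (limma adjusted p = 0.0909). LINC01089, also called LIMT and known as a transcript that EGF signalling lowers, came nearest to the threshold among those higher with the EGOT gapmer. It read 6.635, 6.719 and 6.678 against 6.826, 7.049 and 6.953, a difference of 0.265 (limma adjusted p = 0.0908). At an unadjusted p under 0.05 there were 23 members, 10 higher and 13 lower, or 23.2%, with 25% of all genes and 33.7% of genes with a mean of at least 5.5.

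Bright members also included genes with little difference. LINC00261, an endoderm transcript made beside the liver transcription factor gene FOXA2, read 8.97, 9.03 and 9.10 with the control gapmer and 9.12, 8.96 and 9.10 with the EGOT gapmer. Its groups overlapped. The log2 difference was 0.03 with a 95% confidence interval of -0.15 to 0.21, and FOXA2 was at 0.05 (limma adjusted p = 0.709). LINC00641 had a difference of 0.02, LINC00863 of 0.065, LINC03027 of 0.07 and LINC01446 of 0.14, none of which passed. LINC00863, at 7.79, 7.61 and 7.16 against 7.42, 7.90 and 7.44, varied most within the groups among these, with an interval of -0.39 to 0.52.

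The members that rose had shorter genomic spans than those that fell. Spans, taken from the RefSeq table only to compare genes, ran from 2202 to 12801 bases in the 5 that rose and from 24008 to 195371 bases in the 4 that fell, with a median of 11972 over all 99. This difference in span was not tested, and the spans of all genes that rose or fell were not compared. When the trend of all genes' differences on span was removed, 2 members rose, LINC00938 and LINC00339, and 3 fell, LINC00351, LINC00999 and LINC01347. Of all genes 3.82% then passed, against 8.41% before. LINC00630 was then at -0.44 (limma adjusted p = 0.0653), LINC02381 at 0.52 (limma adjusted p = 0.0836), LINC00574 at 0.33 (limma adjusted p = 0.0760) and LINC00857 at 0.31 (limma adjusted p = 0.118).

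**Figure D5:**
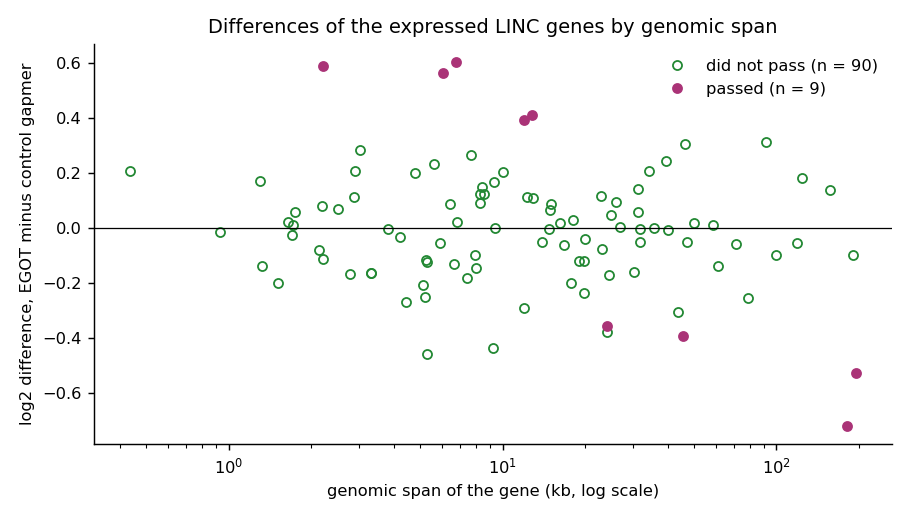
Log2 difference, EGOT gapmer minus control gapmer (y axis), of the 99 members against the genomic span of the gene in kilobases (x axis, log scale). The 5 filled circles above 0 lie at spans of 12801 bases or less and the 4 below 0 at 24008 bases or more, while the open circles, genes that did not pass, scatter about 0 at all spans.

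The counts depended on single arrays. Left without control gapmer replicate 1, 2 or 3, or without EGOT gapmer replicate 3, 0 members passed by limma. In those fits 17 to 23 members had an unadjusted p under 0.05, beside 20% to 22.6% of all genes. Of all genes, 0.392%, 0.0608%, 0.23% and 1.05% passed in those fits. Without EGOT gapmer replicate 1, 4 members passed beside 3.91% of all genes, and without replicate 2 there were 4 beside 3.41%, with LINC00351, LINC00938 and LINC00339 in both. The split was 4 higher and 5 lower after quantile normalization, 44.4% higher instead of 55.6%, and 5 and 5 after cyclic loess, beside 9.13% and 8.92% of all genes. With the mean of a gene's probe sets 8 members passed beside 8.07% of all genes, and with robust eBayes 8 beside 7.95%. With every probe set tested on its own 0 passed by limma beside 0.452%. There 20 members had an unadjusted p under 0.05, beside 21.1% of all genes. With the test limited to genes with a mean of at least 5.5, 17 members passed, 6 higher and 11 lower, beside 25.9% of those genes. With a variance trend it was 16, 5 higher and 11 lower, beside 17% of all genes.

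Of the protein-coding genes next to the members about as large a share passed as of all genes. Genes that overlap a member were left out, so a neighbour is the nearest protein-coding gene on either side without overlap. It was measured in 117 of 198 cases, covering 110 genes, of which 5 rose and 6 fell (10%), beside 8.41% of all genes. Without control gapmer replicate 1, 2 or 3 the 11 calls became 1, and without EGOT gapmer replicate 3 they became 5. The shares of all genes in those fits were 0.392%, 0.0608%, 0.23% and 1.05%. Of the 9 members that passed, LINC00351, LINC00339 and LINC00630 had no measured neighbour. The others had 9 measured neighbours, of which 0 passed by limma and 3 had an unadjusted p under 0.05, beside 25% of all genes. LINC00938 rose beside ANO6, a phospholipid scramblase gene, at -0.15 (limma adjusted p = 0.198), and LINC02381 beside HOXC4, a homeobox gene, at 0.24 (limma adjusted p = 0.140). LINC00857 rose beside the annexin gene ANXA11, at -0.225 (limma adjusted p = 0.156). Neighbours that passed stood beside members that did not. HIVEP2, a zinc finger gene, fell by 1.06 on the log2 scale beside LINC01277, which was at -0.06. TEAD1, a transcription factor of the Hippo pathway, fell by 0.55 beside LINC00958, at 0.20 (limma adjusted p = 0.194). C1orf174 rose by 0.635, and is the nearest on 1 side of both LINC01134, at 0.09, and LINC01346, at -0.29. The windows of C1orf174 and LINC01134 share 231 identical bases in opposite orientation. GLRX, the glutaredoxin gene, rose by 0.49 beside LINC01554, a liver-enriched transcript at -0.10. The others were FER, LIMS3, UBL3 and CDK13, which fell, and ZNF14, ZNF30 and AMZ2, which rose.

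Other noncoding RNAs were read for comparison. Of all genes 8.41% passed, 5.2% higher and 3.21% lower. Of the 358 LINC genes under 5.5, 1 rose and 2 fell, or 0.838%. LINC02499 rose by 0.55 on the log2 scale, LINC01546 fell by 0.54 and LINC00433 by 0.38. Of 33 better-known noncoding RNAs 20 were measured, of which 2 rose and 1, EGOT, the gapmer's own target, fell (15%). TERC, the telomerase RNA, read 8.51, 8.51 and 8.65 against 9.09, 9.19 and 9.03, with a log2 rise of 0.55 (limma adjusted p = 0.0154). DANCR rose by 0.30 (limma adjusted p = 0.0375). The hepatoma transcript HULC, at 0.32 (limma adjusted p = 0.0574), and UCA1, at -0.58 (limma adjusted p = 0.0546), did not pass. MALAT1 was at -0.04, NORAD at 0.05 and GAS5 at -0.01, none of which passed. Of 488 genes with an antisense symbol 14 rose and 2 fell (3.28%), and of 34 microRNA and snoRNA host genes 3 rose and 1 fell (11.8%). These counts depended on single arrays as well. Without control gapmer replicate 1, 2 or 3, 0 genes passed by limma among the LINC genes under 5.5, the antisense genes and the host genes, and 1 of the better-known noncoding RNAs did. Of all genes 0.392%, 0.0608% and 0.23% passed in those fits. At an unadjusted p under 0.05 the first 3 lists had 28 to 30 of 358, 47 to 66 of 488 and 9 to 12 of 34 genes. Of all genes it was 20% to 20.7%. Without EGOT gapmer replicate 3 limma passed 0 LINC genes under 5.5, 2 antisense genes and 0 host genes, beside 1.05% of all genes. At an unadjusted p under 0.05 these were 32 of 358, 68 of 488 and 12 of 34, beside 22.6% of all genes. Without EGOT gapmer replicate 2 the 3 lists had 1, 6 and 1 past the threshold, and without replicate 1 the host genes past it numbered 1. Of all genes 3.41% and 3.91% passed in those fits. Of the LINC genes under 5.5, 6 passed after quantile normalization and 5 after cyclic loess, beside 9.13% and 8.92% of all genes.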

How the data were processed

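Expression was read on 6 arrays of the Human Gene ST kind, 3 per group. RMA, named in the submitters' processing notes, gave the log2 values that the authors deposited; its version and any filters were not given in the sources used here. RMA brings arrays to a shared distribution, so a change in total RNA cannot be seen. GEO's platform annotation gave 1 symbol to 15835 of 44629 probe sets, all found in RefSeq, and the other 28794 were left out.

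The EGOT gapmer group was set against the control with limma 3.58.1 (R 4.3.3; lmFit and eBayes, two-sided, Benjamini-Hochberg over 14812 genes, threshold 0.05), after testing on simulated data. Confidence intervals use the 7.19 degrees of freedom of that fit. No label says that replicate numbers pair arrays. Named are EGOT, EIF2AK2, the members past the threshold, the 6 brightest, the 6 least changed of the brightest 20, the 3 on each side of the cut, those whose probe sets disagree, and neighbours that passed. Members just short of the threshold, those with shared sequence and genes of other lists were named after their values were seen. The members and lists were chosen with earlier results of these data known. Scaling, probe set summary, genes tested, variance model, replicate block, gene span, the level that makes a member and leaving out each array were varied. The number of arrays limits the precision.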

Additional observations from a re-analysis of the deposited data

How the results depend on the processing

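Against 9 members past the threshold (5 higher, 4 lower), counts stayed within 1.5 times after quantile normalization, cyclic loess, the mean of probe sets and robust eBayes, and with members taken at a mean of at least 5 or 6. They were 17 (11 lower) with only genes of mean 5.5 or more tested, 16 (11 lower) with a variance trend, 5 (2 higher) with the span trend removed and 0 (0 higher, 0 lower) with every probe set tested. With 1 array left out the count ran from 0 to 4, the rises from 0 to 3 and the falls from 0 to 2. With the replicate number as a block 0 members passed by limma, beside 0% of all genes. In that fit 21 members had an unadjusted p under 0.05, beside 23.2% of all genes, and EGOT was at -1.76 (limma adjusted p = 0.0543). Same-numbered arrays' deviations from their group means correlated at -0.031, -0.054 and 0.039. With 3 arrays per group these values cannot decide whether same-numbered arrays shared a culture. The members' median difference moved to -0.035 with cyclic loess and -0.067 with the span trend removed, and ran from -0.047 to 0.020 with 1 array left out. LINC00261 changed sign, to -0.027 (quantile), -0.025 (cyclic loess), -0.003 (without control gapmer replicate 1) and -0.052 (span trend removed), never passing, and ran from -0.003 to 0.080 with 1 array left out. The cause of these changes was not tested. No other member followed singly changed sign in the alternatives run.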
